A study of Homo sapiens with 6 samples.

Results

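The genes described here are 41 factors of cytosolic translation: the initiation factors of the eIF1, eIF2, eIF2B, eIF3, eIF4A and eIF5 families with EIF6, the elongation factors and EIF5A, the elongation factor kinase EEF2K, the release factors ETF1 and GSPT1, and the poly(A)-binding protein PABPC1. They were chosen by name, from 26425 genes with a value, and all 41 were among the 11889 genes that were tested. RNA was sequenced from SUM1315 cells, an established line from a triple-negative breast cancer, grown in serum-containing medium with insulin and EGF. The normoxia group (3 libraries) was kept in 21% oxygen and the hypoxia group (3 libraries) in a sealed chamber with 1% oxygen, each for 24 h. The study concerned hypoxia, ribosome production and the oxygen-sensing factor HIF1A. All libraries come from a single cell line, and the labels do not say whether the replicates were separate cultures. The p-values therefore reflect how far these 6 libraries vary, a spread that may be technical.

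Initiation begins when eIF2, carrying GTP and the initiator tRNA, joins eIF1, eIF1A, eIF3 and eIF5 on the small ribosomal subunit, while the helicase eIF4A and its cofactors open the leader of the messenger. eIF2B reloads eIF2 with GTP, and kinases that sense stress, hypoxia included, phosphorylate the alpha subunit of eIF2 so that it blocks eIF2B. EIF5B then joins the large subunit, eEF1 delivers tRNAs, eEF2 moves the ribosome, and eRF1 and eRF3 free the finished chain. Many messengers of elongation factors and ribosomal proteins begin with a C followed by further pyrimidines (C or T in the DNA), the 5′ terminal oligopyrimidine or TOP motif, through which mTORC1 and LARP1 control their translation and stability.

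Values are RPKM (reads scaled by transcript length and by library depth) summed over the transcripts of a gene, given as mean ± SD over 3 libraries. Log2 fold changes (log2FC) compare hypoxia with normoxia after 1 RPKM was added to each value. "Rose" and "fell" mean a Benjamini-Hochberg adjusted p under 0.05 in limma over all tested genes. The depth recovered from the steps of the values was 50.25 to 50.7 M reads in normoxia and 44.0 to 50.55 M in hypoxia, and every member had at least 611 estimated reads in every library. The hypoxia-induced genes SLC2A1 (5.24 to 5.65 RPKM in normoxia, 40.3 to 53.4 in hypoxia), VEGFA and BNIP3 rose with log2FC of 2.88, 1.07 and 2.45, in the direction of the labels. The 5 markers listed for breast epithelial origin (KRT8, KRT18, KRT19, EPCAM and CDH1) stayed at or under 0.0785 RPKM. They thus gave no sign of that origin. Vimentin (VIM), listed as a mesenchymal marker, lay between 4741 and 7439 RPKM. The other mesenchymal markers listed were far lower, with CDH2 at 1.80 to 3.41 RPKM and FN1 at 1.19 to 1.77. ESR1 was at or under 0.209 RPKM, ERBB2 was at 20.2 to 23.7 RPKM, and leukocyte and endothelial markers were at or under 0.0954 RPKM.

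In 1% oxygen the factors did not move as one. The elongation factors EEF1A1, EEF1G and EEF2 and the helicase cofactor EIF4B rose, while all 5 subunits of eIF2B, both release factors, EIF2S1, EIF1AX, EIF5 and EIF5B fell. Of the 41 members, 8 rose (19.5%), by 15.8% to 28.4%, against 12.4% of all tested genes. Another 15 fell (36.6%), by 12.6% to 32.7%, against 24.4% of all tested genes, and 18 did not pass. The members were abundant, with a median of 137 RPKM against 10.3 over all tested genes, and among genes over 5 RPKM the background was 13.3% raised and 31.6% lowered. Their shares therefore lay somewhat above the background of all genes in both directions, and the lowered share lay close to that of abundant genes. Their median log2FC was -0.14 against -0.085 over all tested genes, and the largest change in size was 0.55.

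In 25 members (61.0%) the 3 normoxic values did not overlap the 3 hypoxic ones, against 51.9% of all tested genes. These 25 include all 23 that passed the test. With no filter on low values, when 26425 genes were tested, EIF1AX, EIF2B5, EIF3F, EIF3J, EIF4A1, EIF5B, EEF1A1, EEF1G and EIF5A missed the threshold (adjusted p = 0.0506 to 0.154). Leaving out a normoxic library lowered the number of calls in members and in all genes. Without normoxia replicate 1, 2 and 3, 3, 5 and 7 members rose, beside 9.05%, 9.37% and 8.68% of all tested genes, and 13, 11 and 11 members fell, beside 14.8%, 13.7% and 12.9% of all genes. The lowered count was 11 to 19 over all 6 libraries left out in turn, beside 12.9% to 24.3% of all genes. Under median-of-ratios scaling 9 members rose and 11 fell, and all tested genes turned from 1479 raised and 2900 lowered to 2091 raised and 1339 lowered. With libraries rescaled to equal sums, 8 members rose and 22 fell, beside 1175 and 4217 of all genes, and EIF1B, EIF2S2, EIF3B, EIF3G, EIF3M, EIF6 and EEF1D then passed as lowered. In bulk RNA, fewer cells of a kind and less RNA per cell cannot be told apart.

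**Figure D1:**
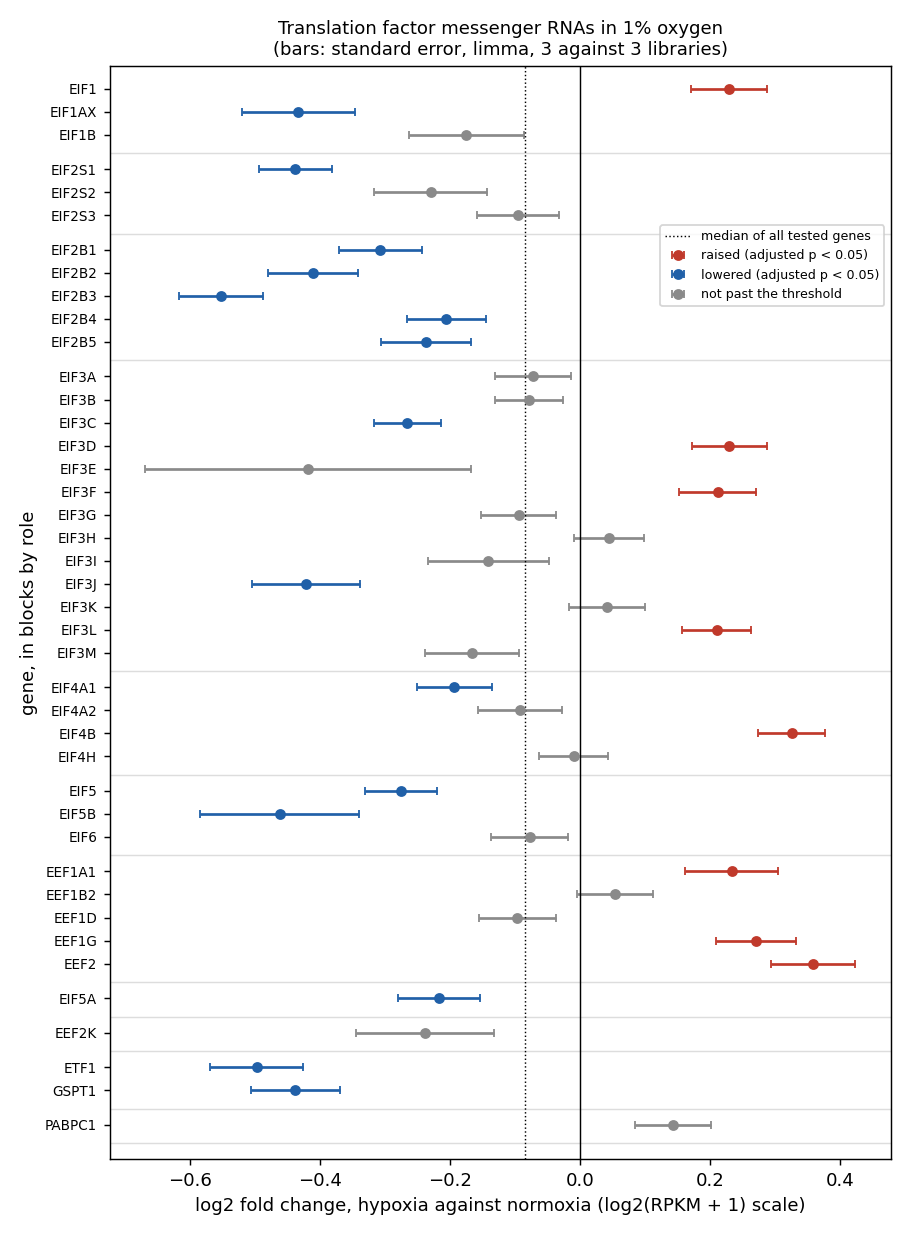
Log2 fold change of each of the 41 members, hypoxia against normoxia, with its standard error from limma (3 against 3 libraries); blocks follow the role in translation. The 8 raised members lie between 0.21 and 0.36, the 15 lowered ones between -0.55 and -0.19, and the dotted line marks the median of all tested genes at -0.085.

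The starts of the messengers are printed first because a pyrimidine run was found at them in most raised and in no lowered member. RefSeq transcript starts (GRCh38.p14) were matched for 33 of the 41 members. Each stretch below runs 5′ to 3′ on the strand of the gene, from 5 bases before the first transcribed base to the 20 bases that open the transcript. Capitals mark a pyrimidine run that opens with C at the first transcribed base and is at least 5 bases long. The first 5 sequences are raised members with such a run, and EEF1B2 has the longest run among the members, at 1 of its 2 listed starts.
EEF1A1 (chr6:73521013-73521037, minus strand): acgttCTTTTTCgcaacgggtttgc
EEF2 (chr19:3985444-3985468, minus strand): gcgttCTCTTCCgccgtcgtcgccg
EIF4B (chr12:53006451-53006475, plus strand): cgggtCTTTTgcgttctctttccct
EIF3D (chr22:36529147-36529171, minus strand): gtttcCTCTTTTCCTggtttctcaa
EIF3F (chr11:7987332-7987356, plus strand): gcctcCTTCTTTCTCgacaagatgg
EEF1B2 (chr2:206159890-206159914, plus strand): cgggtCCTTTTTCCTCTCTTCagcg

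The other two raised members with a RefSeq start, EEF1G and EIF1, and the lowered subunits of eIF2B and eIF2 and the release factors have no such run at the listed start, so their sequences carry no capitals. They are shown to set beside those above.
EEF1G (chr11:62573872-62573896, minus strand): ggcttactttgcggcagcgccgaga
EIF1 (chr17:41688880-41688904, plus strand): cctctgccccagtcactgagccgcc
EIF2B1 (chr12:123633667-123633691, minus strand): gaagtgcgccggaagtggggtgcgg
EIF2B2 (chr14:75002916-75002940, plus strand): gccccggaagtgcaaactgtgtggt
EIF2B3 (chr1:44986576-44986600, minus strand): cagtcagaggcggcgtggagatcgc
EIF2B4 (chr2:27370319-27370343, minus strand): acggcgggcggagcctaggactgag
EIF2B5 (chr3:184135353-184135377, plus strand): tccttgcggaagtggtgaccgtgag
EIF2S1 (chr14:67360323-67360347, plus strand): tccgcatgcgcggtggagtgagcga
ETF1 (chr5:138543217-138543241, minus strand): gtgatgtcacaggccccatgtgagc
GSPT1 (chr16:11915937-11915961, minus strand): gatccgctcacacacacgaggagga

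A run of 5 or more bases was found in 10 of the 33 matched members (30.3%), against 4.07% of all 35116 listed starts and 5.14% of the 27305 genes they belong to. Those 27305 genes include many that were not tested, whereas all members were, so the shares are not of like sets. It was present in 5 of 7 matched raised members, in none of the 15 lowered ones, and in 5 of the 11 that did not pass (EIF2S3, EIF3K, EIF3M, EIF4A2 and EEF1B2). The median log2FC was 0.13 with the run (range -0.17 to 0.36) and -0.24 without it. Of other tested genes, 713 had the run, of which 19.5% rose and 16.3% fell, and 8617 did not, of which 11.2% rose and 26.4% fell. Without ribosomal protein genes the share raised among the 665 other genes with the run was 17.0%, and 17.4% fell. These are descriptions of letters at the listed starts, and the starts used in SUM1315 cells were not measured.

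**Figure D2:**
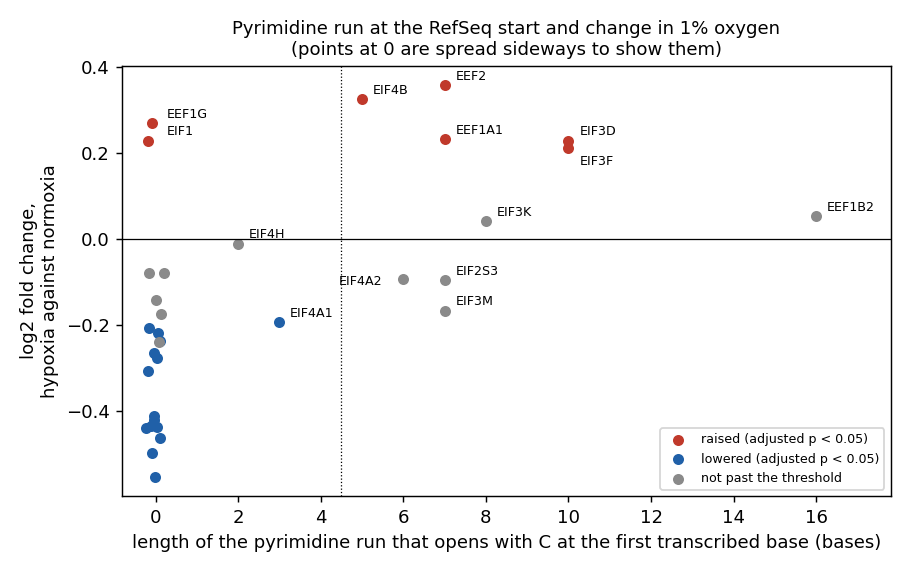
Length in bases of the pyrimidine run that opens with C at the first transcribed base (horizontal) against log2 fold change (vertical) for the 33 members with a RefSeq start; the longest run is used where a gene has several starts. To the right of the dotted line (runs of 5 or more) lie 10 members, 5 of them raised, and all 15 lowered members lie to its left.

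The E-box CACGTG, bound by MYC and related factors, reads the same on both strands and holds A and G, so it cannot lie inside a pyrimidine run. It was found in the 300-base windows (250 before to 50 after the start) of 7 of the 33 matched members, against 7.26% of all windows. The first is a count of genes with it at any listed start and the second a share of single windows, so they are not like measures. Of these, EIF3F and EIF4B rose, EIF2B3 fell, and EIF1B, EIF3K, EIF4H and EEF2K did not pass.

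The factors that scan for the start codon moved apart. EIF1, which keeps scanning ribosomes from stopping at wrong codons, read 331, 351 and 352 RPKM in normoxia and 389, 425 and 400 in hypoxia. It rose by a log2FC of 0.23 (SE 0.06, adjusted p = 0.0116), with no overlap between groups. Without normoxia replicate 1 its adjusted p was 0.0667.

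EIF1AX, the X-linked gene of eIF1A, read 42.3, 43.7 and 46.6 RPKM in normoxia and 36.8, 32.9 and 28.3 in hypoxia. It fell, with a log2FC of -0.43 (SE 0.09, adjusted p = 0.00376), and every hypoxic value lay under every normoxic one. After removal of a GC trend the log2FC was -0.18 (adjusted p = 0.0220). EIF1B, a close relative of EIF1, was at 38.5 ± 2.22 and 34.1 ± 4.34 RPKM (log2FC -0.17, adjusted p = 0.138). The log2 ratio of EIF1 to EIF1B was 3.13, 3.19 and 3.07 in normoxia and 3.41, 3.47 and 3.73 in hypoxia, which is higher by 0.40. The groups did not overlap, and the exact two-sided permutation test gave p = 0.1, the smallest it can give with 3 against 3 libraries.

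Of the 3 subunits of eIF2, EIF2S1 fell. EIF2S1 encodes the alpha subunit, the target of the stress kinases, and read 117, 128 and 123 RPKM in normoxia against 93.3, 89.5 and 88.3 in hypoxia. Its log2FC was -0.44 (SE 0.06, adjusted p = 0.000306), a drop of 26.4% with no overlap. Most of its RPKM lay outside protein-coding transcripts: 55.2% was in a 527-base retained-intron transcript and 34.2% in protein-coding ones. The call held when protein-coding transcripts alone were summed, and after removal of a GC trend the log2FC was -0.23 (adjusted p = 0.0108).

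EIF2S2, the beta subunit, was at 109, 113 and 115 RPKM in normoxia and at 92.9, 111 and 84.4 in hypoxia. Hypoxia replicate 2 lay within the normoxic range, and the difference did not pass (log2FC -0.23, adjusted p = 0.0572). Without that library the log2FC was -0.34 (adjusted p = 0.00294), and without hypoxia replicate 3 it was -0.14 (adjusted p = 0.169). EIF2S3, the gamma subunit that binds GTP, read 74.6, 82.1 and 74.5 RPKM against 75.3, 72.5 and 68.5, with overlapping groups (log2FC -0.10, adjusted p = 0.248).

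All 5 subunits of eIF2B fell, against 24.4% of all tested genes. In each the groups did not overlap, as was so in 51.9% of all tested genes. EIF2B3, the gamma subunit of the catalytic part, read 32.8, 33.7 and 35.0 RPKM in normoxia and 23.3, 23.6 and 21.4 in hypoxia. It fell by 32.7% (log2FC -0.55, SE 0.06, adjusted p = 0.000152), the largest change of all members in size. EIF2B2, the beta subunit of the regulatory part, read 47.3, 48.6 and 50.8 RPKM and then 37.3, 33.4 and 39.2 (log2FC -0.41, SE 0.07, adjusted p = 0.00152). Its highest hypoxic value lay well under its lowest normoxic one. EIF2B1, the alpha subunit, went from 23.1, 21.5 and 22.7 RPKM to 18.6, 18.0 and 17.3 (log2FC -0.31, SE 0.06, adjusted p = 0.00473). Its log2FC was -0.17 (adjusted p = 0.0246) after removal of a GC trend.

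EIF2B4, the delta subunit, and EIF2B5, the catalytic epsilon subunit, fell less. EIF2B4 read 36.5, 37.6 and 39.9 RPKM in normoxia and 31.8, 33.5 and 33.2 in hypoxia (log2FC -0.21, SE 0.06, adjusted p = 0.0224). EIF2B5 read 26.7, 26.4 and 26.2 against 23.7, 20.4 and 22.8 (log2FC -0.24, SE 0.07, adjusted p = 0.0210). Both calls depended on the scaling: the adjusted p was 0.162 for EIF2B4 and 0.125 for EIF2B5 under median-of-ratios scaling, and 0.121 and 0.0745 under upper-quartile scaling. Without normoxia replicate 2 or 3 it was 0.0732 or 0.114 for EIF2B4. For EIF2B5 it was 0.0762, 0.0710 and 0.0658 without normoxia replicate 1, 2 and 3. The summed level of the 5 subunits was 170 ± 4.46 RPKM in normoxia and 132 ± 3.13 in hypoxia, a drop of 21.9%.

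**Figure D3:**
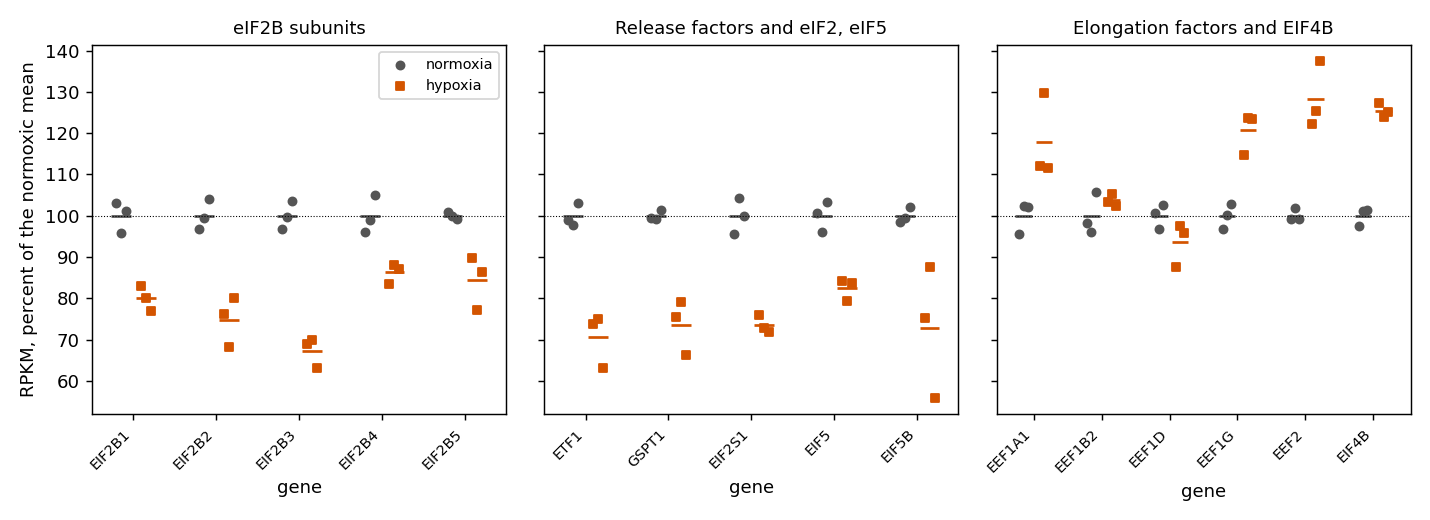
RPKM of each library as a percent of the normoxic mean of the same gene (100, dotted), for eIF2B subunits (left), release factors with EIF2S1, EIF5 and EIF5B (middle) and elongation factors with EIF4B (right); short bars are group means of 3 libraries. All hypoxic points of the left and middle panels lie under 100, and those of EEF1A1, EEF1G, EEF2 and EIF4B lie above the normoxic points.

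The 13 genes of eIF3, the scaffold that holds the other factors on the small subunit, did not move together: 3 rose, 2 fell and 8 did not pass. Their median log2FC was -0.08, close to that of all tested genes, of which 12.4% rose and 24.4% fell. EIF3D, the subunit that can bind the cap of some messengers, read 85.8, 90.4 and 95.7 RPKM in normoxia and 106, 106 and 107 in hypoxia. It rose (log2FC 0.23, SE 0.06, adjusted p = 0.0109), but without normoxia replicate 1 its adjusted p was 0.0697. The hypoxic libraries agreed closely in this gene, and all lay above the normoxic range.

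EIF3F and EIF3L, subunits of the octamer core, rose as well. EIF3F read 170, 169 and 176 RPKM against 186, 207 and 204 (log2FC 0.21, SE 0.06, adjusted p = 0.0178). EIF3L read 150, 149 and 155 RPKM against 171, 177 and 178 (log2FC 0.21, SE 0.05, adjusted p = 0.0110). In both, every hypoxic value exceeded every normoxic one. Neither call held in all settings. With protein-coding transcripts alone the log2FC of EIF3L was 0.01 (adjusted p = 0.875), 48.3% of its RPKM being in a retained-intron transcript of 1708 bases, and that of EIF3F was 0.18 (adjusted p = 0.0594). Without normoxia replicate 1 and 2 the adjusted p was 0.0708 and 0.0805 for EIF3F, and 0.0552 and 0.0650 for EIF3L.

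EIF3C and EIF3J fell. EIF3C, another core subunit, read 345, 342 and 345 RPKM in normoxia and 279, 286 and 293 in hypoxia (log2FC -0.27, SE 0.05, adjusted p = 0.00340). It shares nearly all of its sequence with EIF3CL, a neighbouring copy, which was at 97.9 ± 3.05 and 98.4 ± 5.55 RPKM. Under median-of-ratios scaling the log2FC of EIF3C was -0.17 (adjusted p = 0.0266), and after removal of a length trend -0.17 (adjusted p = 0.0148). How reads were divided between the copies is uncertain, and their sum was 442 ± 5.09 RPKM in normoxia and 385 ± 12.2 in hypoxia. EIF3J, a loosely bound subunit that acts in assembly and recycling, read 51.1, 47.2 and 51.1 RPKM against 38.7, 40.5 and 32.1. It fell by 25.5% (log2FC -0.42, SE 0.08, adjusted p = 0.00355), with no overlap. After removal of a GC trend the value was -0.20 (adjusted p = 0.0176).

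EIF3E was the member with the widest spread in hypoxia. It read 41.3, 46.5 and 49.4 RPKM in normoxia and 38.9, 51.0 and 19.4 in hypoxia, so hypoxia replicate 2 was the highest library and replicate 3 the lowest. The log2FC was -0.42 with SE 0.25 and adjusted p = 0.204. Without hypoxia replicate 3 it was -0.03 (adjusted p = 0.840), and without hypoxia replicate 2 it was -0.71 (adjusted p = 0.0230), so single libraries set the value. Its value was split over short transcripts, 29.4% of it in one of 697 bases and 28.9% in one of 223 bases.

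The remaining eIF3 subunits did not pass the test. EIF3B, which anchors the module of EIF3B, EIF3G and EIF3I, read 93.3, 90.6 and 91.2 RPKM against 85.5, 87.4 and 87.5. Its groups did not overlap, but the change was small (log2FC -0.08, adjusted p = 0.249) and was 0.01 under median-of-ratios scaling. EIF3G and EIF3I, the other two of that module, had log2FC of -0.09 and -0.14. For EIF3I, hypoxia replicate 2 at 103 RPKM was the highest library. The log2FC of EIF3I was -0.26 (adjusted p = 0.00868) without it, -0.07 (adjusted p = 0.597) without hypoxia replicate 1 and -0.09 (adjusted p = 0.512) without hypoxia replicate 3.

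EIF3M, a core subunit, read 262, 271 and 285 RPKM against 237, 269 and 223, with hypoxia replicate 2 inside the normoxic range (log2FC -0.17, adjusted p = 0.0921). Without that library its log2FC was -0.24 (adjusted p = 0.0139), and without hypoxia replicate 3 it was -0.11 (adjusted p = 0.253). EIF3A, EIF3H and EIF3K, further core subunits, had log2FC of -0.07, 0.04 and 0.04, and each of these signs turned under at least 1 scaling. The summed eIF3 level was 1975 ± 28.5 RPKM in normoxia and 1915 ± 83.0 in hypoxia (-3.00%), a gap smaller than the hypoxic SD. Among the 8 core subunits 2 rose, 1 fell and 5 did not pass, beside 12.4% raised and 24.4% lowered of all tested genes.

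**Figure D4:**
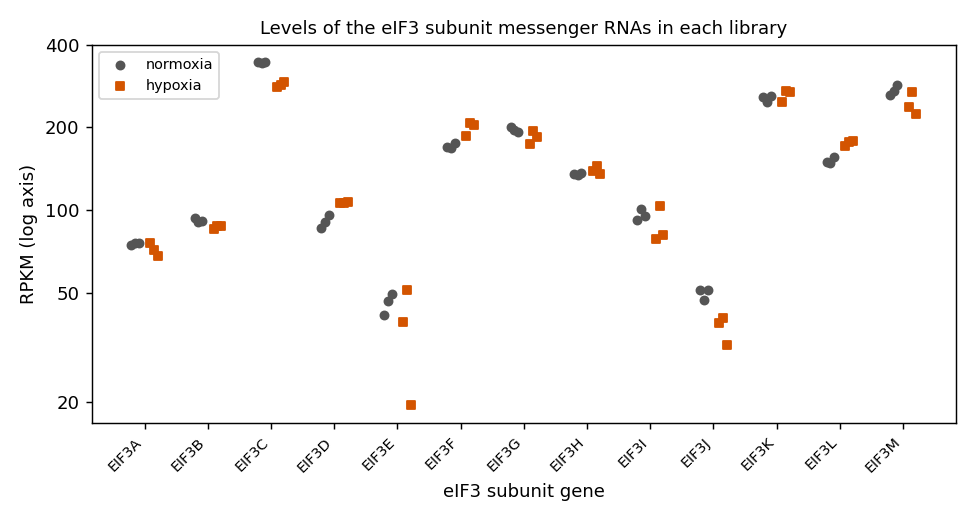
RPKM (log axis) of the 13 eIF3 subunit messengers in each of the 3 normoxic (circles) and 3 hypoxic (squares) libraries. EIF3D, EIF3F and EIF3L lie higher in hypoxia and EIF3C and EIF3J lower without overlap, and EIF3E spreads from 19.4 to 51.0 RPKM in hypoxia.

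In the eIF4A set the helicase and its cofactor moved in opposite directions. EIF4A1, the main form of the helicase, read 621, 605 and 660 RPKM in normoxia and 558, 544 and 545 in hypoxia. It fell by 12.6% (log2FC -0.19, SE 0.06, adjusted p = 0.0228), a call that rested on several choices. Its adjusted p was 0.194 with median-of-ratios scaling, 0.154 with upper-quartile scaling, and 0.0700, 0.0539 and 0.111 without normoxia replicate 1, 2 and 3.

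EIF4B, which stimulates the helicase, read 143, 148 and 148 RPKM in normoxia and 186, 181 and 183 in hypoxia. It rose by 25.5% (log2FC 0.33, SE 0.05, adjusted p = 0.00109), and the lowest hypoxic library lay well above the highest normoxic one. The call held under all 17 alternatives tried.

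EIF4H, a related cofactor, had values of 190 to 199 RPKM in normoxia and 191 to 198 in hypoxia (log2FC -0.01, adjusted p = 0.897), and its sign turned to 0.08 under median-of-ratios scaling. EIF4A2, the second form of the helicase, read 140, 141 and 147 RPKM against 145, 134 and 124, with overlapping groups (log2FC -0.09, adjusted p = 0.280). The log2 ratio of EIF4A1 to EIF4A2 was 2.13 ± 0.03 in normoxia and 2.03 ± 0.10 in hypoxia, which an exact two-sided permutation test did not separate (p = 0.2, smallest possible 0.1).

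EIF5 and EIF5B, which act when the start codon is found and the large subunit joins, both fell. EIF5, the factor that makes eIF2 split its GTP, read 192, 183 and 197 RPKM in normoxia and 160, 151 and 160 in hypoxia (log2FC -0.28, SE 0.06, adjusted p = 0.00399). EIF5B, the joining GTPase, read 32.1, 32.5 and 33.4 RPKM against 24.6, 28.6 and 18.3 (log2FC -0.46, SE 0.12, adjusted p = 0.0142). Its hypoxic libraries spread far more than the normoxic ones, although none overlapped. Without hypoxia replicate 3 its log2FC was -0.29 (adjusted p = 0.0138), and that of EIF5 under median-of-ratios scaling was -0.18 (adjusted p = 0.0285). EIF6, which keeps the subunits apart and takes part in ribosome production, read 262, 266 and 283 RPKM against 249, 249 and 271, with overlapping groups (log2FC -0.08, adjusted p = 0.324).

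The elongation factors EEF2 and EEF1G were the most abundant members by mean RPKM, in normoxia and in hypoxia. EEF2, the factor that moves the ribosome along the messenger, read 1460.0, 1499 and 1460.2 RPKM in normoxia and 1802, 1848 and 2024 in hypoxia. It rose by 28.4% (log2FC 0.36, SE 0.06, adjusted p = 0.00213), the largest rise among the members, and the call held under all 17 alternatives. Every hypoxic value lay well above every normoxic one.

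EEF1G, the gamma subunit of the exchange complex that reloads eEF1A, read 1269, 1313 and 1347 RPKM in normoxia and 1504, 1621 and 1618 in hypoxia. It rose by 20.7% (log2FC 0.27, SE 0.06, adjusted p = 0.00680), without overlap. EEF1B2 and EEF1D, the subunits of that complex with exchange activity, did not follow it past the threshold. EEF1B2 read 509, 497 and 549 RPKM against 536, 546 and 531 (log2FC 0.05, adjusted p = 0.486). The longest pyrimidine run printed above lies at 1 of its 2 listed starts. EEF1D was at 194 ± 5.57 and 182 ± 10.2 RPKM (log2FC -0.10, adjusted p = 0.217). The difference between subunits was not tested.

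EEF1A1, which brings aminoacyl-tRNA to the ribosome, read 956, 1023 and 1021 RPKM in normoxia and 1121, 1297 and 1117 in hypoxia. It rose (log2FC 0.23, SE 0.07, adjusted p = 0.0261), with no overlap, but it is the member whose call was nearest to the threshold. The adjusted p was 0.107, 0.0676 and 0.0605 without normoxia replicate 1, 2 and 3, and 0.0725 without hypoxia replicate 2. After removal of a GC trend the log2FC was 0.37 (adjusted p = 0.00322). Of its RPKM as deposited, 65.6% lay in a retained-intron transcript of 792 bases and 27.9% in another of 958 bases, and 5.74% in protein-coding transcripts. The 792-base transcript was at 702 ± 33.0 RPKM in normoxia and 728 ± 76.6 in hypoxia, and the 958-base one at 234 ± 7.68 and 373 ± 60.8. The gene's rise was thus mostly in the second. A further 21 pseudogenes of EEF1A1 summed to 12.3 ± 0.877 and 16.8 ± 0.672 RPKM, so few reads were assigned to copies.

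EIF5A, which carries hypusine and helps ribosomes past stretches such as prolines, read 843, 885 and 891 RPKM in normoxia and 705, 798 and 752 in hypoxia. It fell by 13.9% (log2FC -0.22, SE 0.06, adjusted p = 0.0211), with no overlap. The adjusted p was 0.151 under median-of-ratios scaling, 0.135 under upper-quartile scaling, and 0.0900 and 0.0808 without normoxia replicate 2 and 3. EEF2K, the kinase that switches eEF2 off, was the least abundant member, with 7.21, 7.16 and 6.51 RPKM in normoxia and 6.53, 4.69 and 6.16 in hypoxia. Its groups overlapped (log2FC -0.24, adjusted p = 0.0985). It passed with protein-coding transcripts alone (-0.26, adjusted p = 0.0252) and with length-weighted reads (-0.31, adjusted p = 0.0144). Its log2FC was -0.12 (adjusted p = 0.306) without hypoxia replicate 2 and -0.08 (adjusted p = 0.533) after removal of a length trend.

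Both release factors fell. ETF1, eRF1, which reads the stop codon, was at 68.5, 67.6 and 71.2 RPKM in normoxia and at 51.0, 51.9 and 43.6 in hypoxia. It fell by 29.4% (log2FC -0.50, SE 0.07, adjusted p = 0.000594). GSPT1, the GTPase eRF3a that works with it, read 73.1, 72.8 and 74.4 RPKM against 55.4, 58.1 and 48.8 (log2FC -0.44, SE 0.07, adjusted p = 0.00101). Normoxic values of both genes varied little, hypoxia replicate 3 was the lowest library in each, and no values overlapped. Both calls held under all 17 alternatives, with the log2FC of ETF1 at -0.33 after removal of a GC trend.

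PABPC1, which binds the poly(A) tail and links it to initiation and termination, read 1006, 1021 and 1024 RPKM in normoxia and 1075, 1177 and 1118 in hypoxia. All hypoxic values lay above the normoxic ones, but the change did not pass (log2FC 0.14, SE 0.06, adjusted p = 0.0770). It passed under median-of-ratios scaling (log2FC 0.24, adjusted p = 0.0121) and without hypoxia replicate 1 (0.17, adjusted p = 0.0216). With length-weighted reads the log2FC was 0.00068 (adjusted p = 0.996), and with equal sums 0.07 (adjusted p = 0.177). Its 3485-base transcript, 47.1% of the value, was at 518 ± 34.5 and 489 ± 111 RPKM, so the higher gene value came from shorter transcripts.

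The groups of factors were then set side by side. The mean log2(RPKM + 1) of the 5 eIF2B subunits was 5.06, 5.06 and 5.11 in normoxia and 4.76, 4.70 and 4.73 in hypoxia (difference -0.34). For the 3 subunits of eIF2 it was 6.69 ± 0.05 and 6.43 ± 0.08 (difference -0.25), and EIF2S1 alone passed its test. The 5 elongation factors showed the opposite direction, with 9.47, 9.49 and 9.53 in normoxia and 9.60, 9.71 and 9.67 in hypoxia (difference 0.16). In these 3 sets all hypoxic library means lay on one side of all normoxic ones.

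For eIF3 the difference was -0.07 and for the eIF4A set 0.01, both within the spread of the libraries, and the sign of eIF3 turned under median-of-ratios scaling (0.02) and that of the eIF4A set with equal sums (-0.06). The signs of the eIF2B, eIF2 and elongation differences stayed under every scaling, but their sizes moved. The eIF2 difference was -0.16 under median-of-ratios scaling and -0.077 after removal of a GC trend, and the elongation difference was 0.26 under median-of-ratios scaling and 0.096 with equal sums. By summed level, the elongation factors went from 4495 ± 96.1 to 5370 ± 206 RPKM (19.4% more) and the release factors from 143 ± 2.72 to 103 ± 9.31 RPKM (27.8% less). Values of the groups carry no test, since members were chosen by name and are not replicates.

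Of the members, 10 are messengers long known to carry TOP motifs (EEF1A1, EEF1B2, EEF1D, EEF1G, EEF2, EIF3E, EIF3F, EIF3H, EIF4B and PABPC1). This list was chosen with earlier results of these data known. A run was found at a listed start of EEF1A1, EEF1B2, EEF2, EIF3F and EIF4B but not of EEF1G. No start was matched for EEF1D, EIF3E, EIF3H and PABPC1. Of these 10, 5 rose (EEF1A1, EEF1G, EEF2, EIF3F and EIF4B) and 5 did not pass, with a median log2FC of 0.18, and in 6 the groups did not overlap. Of the 31 other members 3 rose (EIF1, EIF3D and EIF3L), 15 fell and 13 did not pass, with a median of -0.21. The background over all tested genes is 12.4% raised and 24.4% lowered, with no overlap between the groups in 51.9%.

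Lowered members had a lower GC content than the others. Its median, weighted by expression, was 51.0% in raised members, 47.0% in lowered ones, 50.4% in those that did not pass and 50.5% over all tested genes. The median length was 1680, 1935, 1498 and 2369 bases in the same order, so length did not follow the order of the calls. After a GC trend was taken out of each library 10 members rose and 14 fell, and after a length trend was taken out 9 rose and 14 fell, both steps being chosen after seeing the data. Of all tested genes 16.9% rose and 15.3% fell after the GC step, and 17.1% and 13.5% after the length step. The eIF2B difference was then -0.26 and -0.29. EIF3H (log2FC 0.20, adjusted p = 0.00703) and EEF1B2 (0.15, adjusted p = 0.0386) passed as raised after the GC step, and EEF1D (-0.16, adjusted p = 0.0364) as lowered. EIF4A1 and EIF5B lost their calls without the GC trend (log2FC -0.11 and -0.24, adjusted p = 0.107 and 0.0673), and EIF2B5 and EIF5B without the length trend (0.0800 and 0.0919).

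Transcript assignment also touched several members: 5 of the 41 had under 50% of their RPKM in protein-coding transcripts (EIF2S1, EIF2B2, EIF3F, EIF3L and EEF1A1). In EIF2B2, 63.1% of the value was in a retained-intron transcript of 772 bases and 10.7% in protein-coding ones. With protein-coding transcripts alone 6 members rose and 16 fell, beside 11.6% and 27.1% of the 10637 genes then tested. The library kit does not mark strand, so reads of genes on the opposite strand cannot be told apart from those of a member. Such neighbours overlap EIF5B (TXNDC9), EIF2B1 (DDX55), EIF2S1 (ATP6V1D), EIF3J (SPG11), EIF5A (GPS2), EIF3L (ANKRD54) and EIF4A2 (RFC4) in the annotation.

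Spread differed between the groups. The median SD of log2(RPKM + 1) over the members was 0.04 in normoxia and 0.08 in hypoxia. Hypoxia replicate 3, the library with the lowest depth, was the lowest hypoxic library in 18 members, replicate 1 in 16 and replicate 2 in 7. Without replicate 3 of hypoxia 8 members rose and 15 fell, as with all libraries. Of all tested genes 10.2% then rose and 23.3% fell.

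Of 54 tested genes from lists of regulators and relatives of the members, 4 rose and 25 fell, with a median log2FC of -0.17. Over all tested genes 12.4% rose and 24.4% fell, with a median of -0.085. Among 9 kinases and phosphatase subunits of eIF2, 1 rose and 3 fell. PPP1R15A (GADD34), which directs the phosphatase to eIF2 alpha and is induced by stress, rose from 26.9, 26.7 and 28.4 RPKM to 36.0, 36.4 and 39.1 (log2FC 0.43, SE 0.06, adjusted p = 0.000584). EIF2AK2 (PKR), the eIF2 kinase that senses double-stranded RNA, fell from 11.2 ± 0.825 to 6.92 ± 1.20 RPKM (log2FC -0.64, SE 0.11, adjusted p = 0.00139). These lie beside the fall of EIF2S1 and of all eIF2B subunits.

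Of 15 enzymes that make hypusine on EIF5A or diphthamide on EEF2, or methylate elongation factors, 2 rose and 6 fell, against 12.4% and 24.4% of all tested genes. EEF2KMT, which methylates EEF2, fell from 29.9 ± 0.815 to 19.9 ± 1.35 RPKM (log2FC -0.57, adjusted p = 0.000168). EEF1AKMT3, which methylates eEF1A, rose from 5.80 ± 0.577 to 7.07 ± 0.04 RPKM (log2FC 0.25, adjusted p = 0.0369). Of 10 factors of alternative initiation and ribosome recycling 6 fell and the rest did not pass, against 24.4% lowered over all tested genes, with a median log2FC of -0.30. Of 2 tested partners of PABPC1 1 fell.

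Among 7 tested relatives of the members 1 rose and 1 fell, against 12.4% and 24.4% of all tested genes. The one that rose was EEF1A2, the second eEF1A gene, mainly expressed in muscle and nerve and found in some tumours. It read 22.1, 21.5 and 21.6 RPKM in normoxia and 34.2, 37.0 and 41.2 in hypoxia, with no overlap. Its log2FC of 0.76 (SE 0.07, adjusted p = 3.48e-05) exceeded that of every member in size, while its level stayed far under the 1178 ± 103 RPKM of EEF1A1 in hypoxia.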

How the data were processed

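The authors deposited 1 table of RPKM values for 165956 Ensembl transcripts in 6 libraries. No header names the unit, which was read from the values: 79.1% to 80.3% of low ones lay within 0.1 of a whole number of reads after scaling. Per the submitters' processing notes the tools were Trimmomatic, HISAT2, SAMtools and Partek on GRCh38 (hg38); their versions, the annotation release and the strand setting are unknown here. Transcripts were joined to GENCODE 29, which matched 84.4%; the rest, with 3.43% to 3.67% of the RPKM, did not enter gene values. RPKM was summed over 26425 genes, so short transcripts weigh more than in a read count.

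Genes above 1 RPKM in at least 3 libraries were tested with limma 3.58.1 (R 4.3.3) (trend option) on log2(RPKM + 1), which understates changes of low genes, hypoxia against normoxia, two-sided, with Benjamini-Hochberg adjustment over 11889 genes and a threshold of 0.05. Paralog ratios were compared by exact permutation tests. One read in a 2 kb transcript is worth 0.00986 to 0.0114 RPKM; recovered depth covers counting error only. Replicates did not agree within counting noise (mean chi-square per gene of 6.67 or more). The fit was tested on simulated data. Sequences are from RefSeq (GRCh38.p14).

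The members, gene lists and TOP list were chosen with earlier results of these data known. The naming rule was all 41 members, at most 3 largest and 3 smallest called changes of related genes, label-check genes and copies or overlapping genes. Alternatives were 3 scalings, no filter or a filter at 5 RPKM, a pseudocount of 0.1, a replicate block, each library left out, protein-coding transcripts alone and length-weighted reads. Removal of GC and length trends (loess) was chosen after seeing the data. Python 3.11.15, pandas 2.3.3, numpy 2.4.6 and matplotlib 3.10.9 were used.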

Additional observations from a re-analysis of the deposited data

How the results depend on the processing

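Of the 8 raised members 2 (EIF4B and EEF2) kept their call under all 17 alternatives, and of the 15 lowered ones 8 did (EIF2S1, EIF2B1, EIF2B2, EIF2B3, EIF3C, EIF5, ETF1 and GSPT1). No member past the threshold changed sign. With no filter on low values 5 members rose and 9 fell, beside 4.05% and 5.17% of the 26425 genes then tested. Leaving out 1 library gave 3 to 9 raised and 11 to 19 lowered members, beside 8.68% to 13.0% and 12.9% to 24.3% of all tested genes. Same-numbered libraries did not deviate together (correlations 0.09, 0.03 and -0.23), so the numbers were not taken as pairs. With the replicate block 8 members rose and 16 fell, beside 12.3% and 22.4% of all tested genes.

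The eIF2 difference was -0.16 with median-of-ratios scaling and -0.077 with the GC trend removed. That of eIF2B was -0.25 (median-of-ratios), -0.28 (upper-quartile), -0.41 (equal sums), -0.26 (GC trend removed) and -0.29 (length trend removed). That of eIF3 turned to 0.021 with median-of-ratios scaling and to 0.020 with the GC trend removed. The eIF4A set gave 0.10, 0.074, -0.061, 0.12 and 0.071 under the 5 settings named for eIF2B, in the same order, -0.0038 with protein-coding transcripts alone, -0.022 with length-weighted reads, and -0.0086 to 0.028 with 1 library left out. The elongation difference was 0.26, 0.23 and 0.10 under the 3 scalings. The cause was not tested.

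Single members that did not pass turned sign as follows. With median-of-ratios scaling EIF3A gave 0.019, EIF3B 0.013, EIF4H 0.082 and EIF6 0.015; upper-quartile scaling gave 0.056 for EIF4H. With equal sums EIF3H gave -0.023, EIF3K -0.027 and EEF1B2 -0.015, and length-weighted reads gave -0.016 for EIF3H. With the GC trend removed EIF1B gave 0.0018, EIF2S3 0.084, EIF3A 0.049, EIF3M 0.015, EIF4A2 0.11 and EIF4H 0.052. With the length trend removed EIF3A gave 0.066, EIF3B 0.0063 and EIF4H 0.068. EIF4H ranged from -0.031 to 0.0048 with 1 library left out. The GC and length trends were chosen after seeing the data.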

Other observations

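The factors of mitochondrial translation are a separate set encoded in the nucleus. Of 11 tested genes 8 fell and 3 did not pass (MTIF3, MTRF1 and MRRF, with log2FC of 0.21, -0.11 and -0.12, named after their values were seen), with a median log2FC of -0.26, against 24.4% lowered and a median of -0.085 over all tested genes. GFM1, the mitochondrial counterpart of EEF2, read 21.0, 20.2 and 20.9 RPKM in normoxia and 14.5, 13.9 and 13.6 in hypoxia. It fell with a log2FC of -0.53 (SE 0.06, adjusted p = 0.000179 in limma) and no overlap, while cytosolic EEF2 rose by 28.4%. The difference between the cytosolic and mitochondrial sets was not tested.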
